A study of Mus musculus with 8 samples.

Results

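The citrate cycle and the breakdown of amino acids into it were followed in the newborn mouse heart through 33 genes, which encode pyruvate dehydrogenase, enzymes of the cycle, enzymes that refill or drain it, transaminases, glutamate dehydrogenase and the branched-chain amino acid enzymes. The genes were taken by symbol from the 39614 annotated loci (80155 loci in all), ignoring case, and each of the 33 was found at 1 locus of its own. RNA-seq had been made from the hearts of male Hsd:ICR(CD-1) mice, an outbred stock, at postnatal day 1 (P1, 4 hearts) and postnatal day 7 (P7, 4 hearts). Every library came from 1 animal, and the stages differed by age alone in the labels. Each sample was a whole heart without the atrial appendages, and its total RNA was freed of ribosomal RNA before library preparation with the ScriptSeq v2 kit. No transgene and no treatment are named in the labels.

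In the mitochondrial matrix, pyruvate dehydrogenase makes acetyl-CoA from pyruvate, and the citrate cycle oxidizes this acetyl group while it reduces the electron carriers that feed the respiratory chain. Intermediates leave the cycle for other syntheses and are replaced by anaplerotic enzymes, by transaminases, which move amino groups between amino acids and keto acids, and by glutamate dehydrogenase. The branched-chain amino acids leucine, isoleucine and valine lose their amino group first and are then decarboxylated by a complex built like pyruvate dehydrogenase. The heart around birth changes from glucose and lactate toward fatty acids as fuel, and all of these fuels enter the same cycle.

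The deposited unit is FPKM, a fragment number scaled to transcript length and library size, which is meant to make levels comparable between genes and hearts. The files hold no fragment counts, and the depth behind each value is unknown. From the smallest steps between values of low loci, 1 fragment counted 1.24 to 1.62 times as much in the other 7 hearts as in P1 replicate 1, the deepest library. The hearts still differed in overall level, so their values were not on a common scale. Annotated loci held from 27.35% (P7 replicate 4) to 66.95% (P7 replicate 3) of all FPKM in a heart. The median ratio of a heart's annotated loci to their mean over hearts was 0.801 to 1.16 at P1 and 0.942 to 1.27 at P7, highest in P1 replicate 4 and P7 replicate 3. P1 replicate 3 had 28662 loci at 1 FPKM or more, against 20269 to 22292 in the other hearts. In whole-heart RNA, fewer cells of a type and less RNA per cell cannot be told apart.

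Most of the 33 transcripts were abundant at both stages and few passed the test for a change. *Mdh1*, cytosolic malate dehydrogenase, and *Idh2*, the mitochondrial NADP-dependent isocitrate dehydrogenase, led the order at both stages, and *Pcx*, pyruvate carboxylase, was last. Mean levels ran from 0.673 to 370.4 FPKM at P1 and from 0.751 to 458.6 FPKM at P7, and 26 of the 33 genes had 10 FPKM or more in every heart. Neighbours in the order of mean level mostly overlapped between hearts. Only 2 of 32 neighbouring pairs at P1 and 1 of 32 at P7 had no overlap, and *Pck2* over *Pcx* was such a pair at both stages. The summed FPKM of the 33 genes was 0.579% ± 0.135 of the annotated FPKM total at P1 and 0.573% ± 0.103 at P7 (SD, n = 4 each).

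By limma on log2(FPKM + 1), with the Benjamini-Hochberg adjustment over all tested loci, 3 of the 33 genes rose from P1 to P7, 0 fell and 30 did not pass. To be called, a gene needed an adjusted p below 0.05 and stage means that differed at least 1.5-fold. Among the 17960 annotated loci tested by the same rule, 7.74% were called higher and 0.401% lower at P7, so 3 of 33 (9.09%) lies near the background. In all, 6 of the 33 genes had an unadjusted limma p under 0.05, as did 5328 of the 17960 annotated loci. The genes called were *Me3*, a mitochondrial malic enzyme, *Bckdha*, a subunit of the branched-chain keto acid dehydrogenase, and *Pck2*, the mitochondrial phosphoenolpyruvate carboxykinase. In these 3 and in *Bckdk*, every P7 heart lay above every P1 heart (4 of 33 genes, against 17.3% of the annotated loci), and no gene had every P7 heart below (2.69% of the annotated loci). The median log2 fold change was 0.08 over the 33 genes, while it was 0.19 over all annotated loci tested. Of the 33 genes, 24 (72.7%) were above 0, against 67.6% of the annotated loci. The log2(FPKM + 1) scale understates the change of low genes such as *Pck2*.

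**Figure D1:**
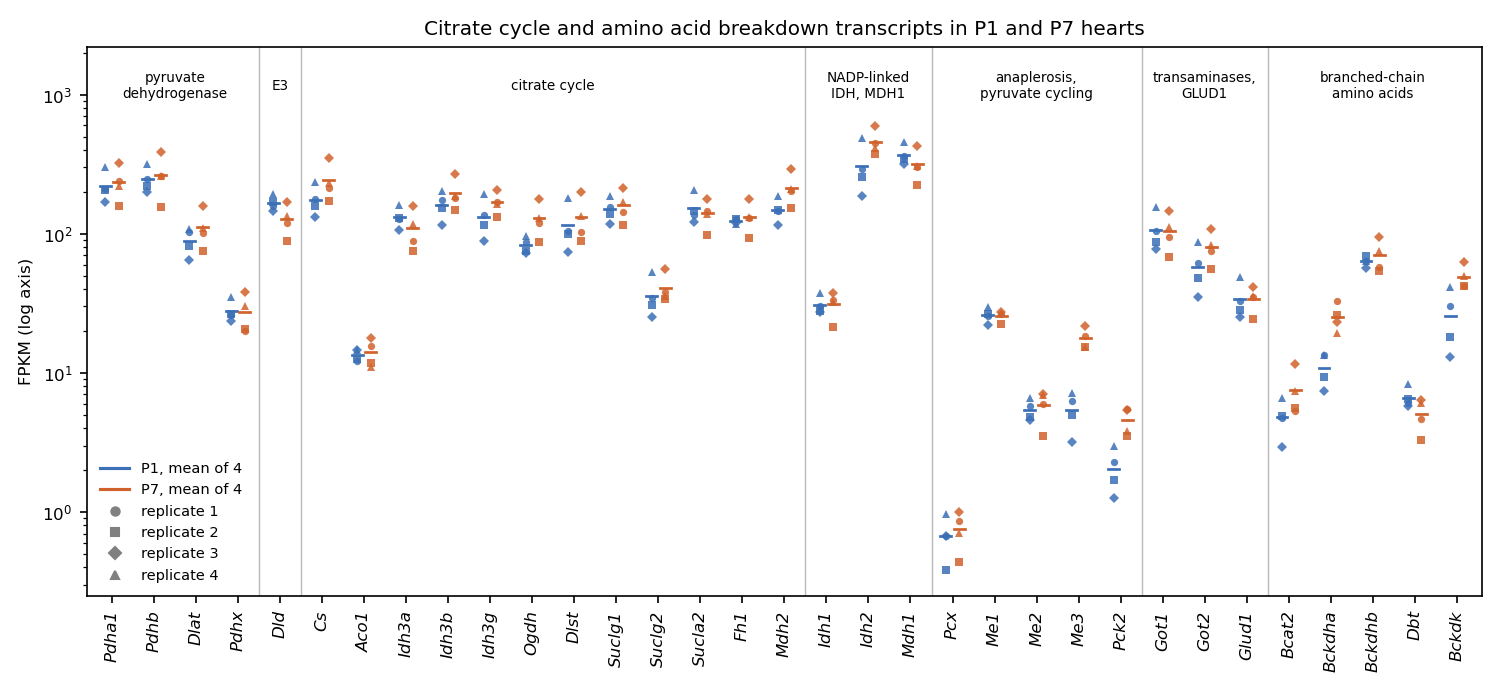
FPKM (log axis) of the 33 genes in each of the 8 hearts, grouped by role, with P1 in blue and P7 in orange. Symbols mark the replicate number and short lines the mean of 4 hearts. The stages are apart at *Me3*, *Bckdha*, *Pck2* and *Bckdk* and overlap at the other 29 genes.

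The 30 genes that were not called are not shown to be unchanged. Their 95% intervals of the log2 fold change, not adjusted for the number of genes, reached down to -0.89 (*Dld*) and up to 1.69 (*Bckdk*). In 9 of them the interval stayed within a change of 1.5-fold in either direction, whereas in 15 it reached 1.5-fold higher and in 6 it reached 1.5-fold lower. The spread within a stage was largely shared between genes. P1 replicate 4 had the highest P1 value of 30 of the 33 genes and P1 replicate 3 the lowest of 30, and at P7 replicate 3 was highest for 31 genes and replicate 2 lowest for 28. When the hearts were brought to 1 median-ratio scale, the median log2 fold change of all annotated loci moved from 0.19 to 0.00. That of the 33 genes moved from 0.08 to -0.12, with 13 of the 32 genes then tested above 0. Of the annotated loci, 50.15% were then above 0.

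**Figure D2:**
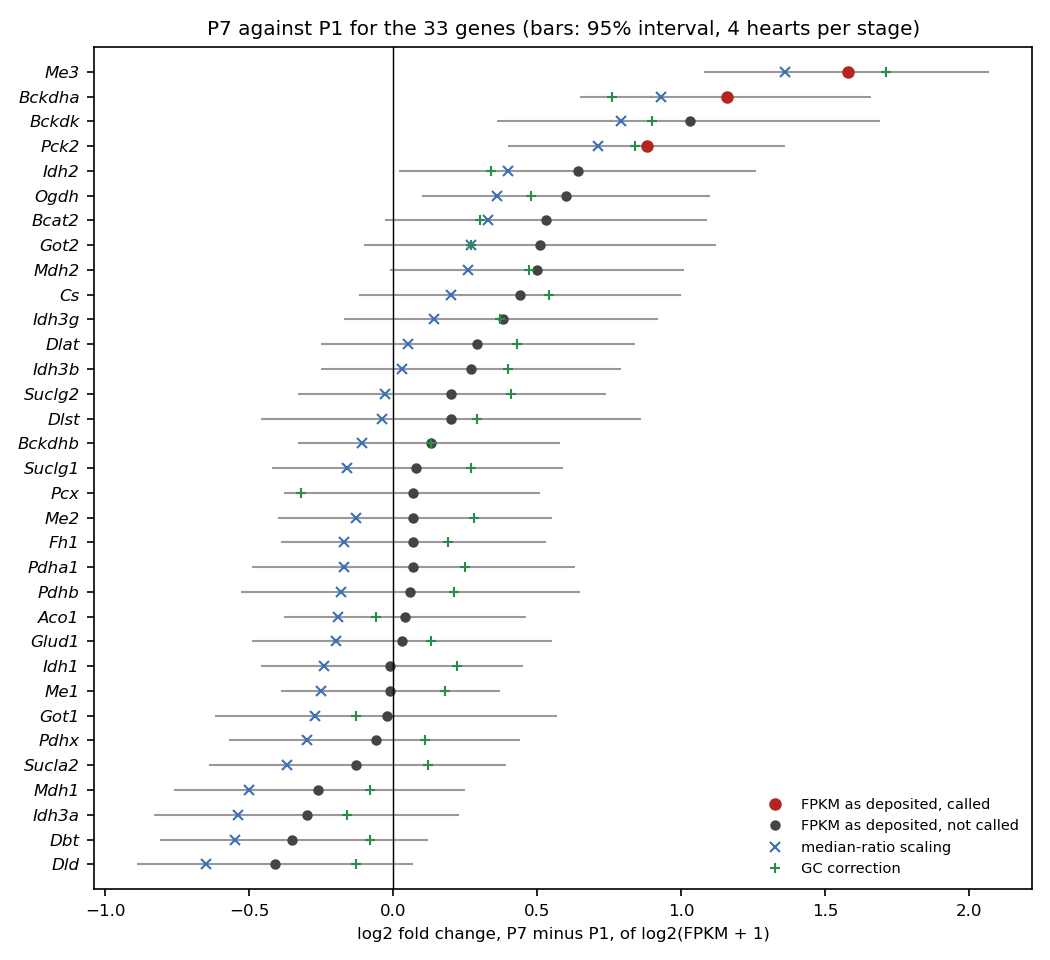
Log2 fold change (P7 minus P1, log2(FPKM + 1) scale) of the 33 genes, with 95% intervals from 4 hearts per stage for the FPKM as deposited. Crosses give the value after median-ratio scaling and plus signs that after GC correction. *Me3* is farthest to the right under all 3, and several genes from *Suclg2* down to *Sucla2* lie on either side of 0 depending on the scale.

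Pyruvate dehydrogenase showed no called subunit. *Pdha1* and *Pdhb* encode the 2 chains of its E1 component, *Dlat* its E2 acetyltransferase and *Pdhx* the protein that binds E3 to the core. *Pdha1* had 208, 207, 169 and 304 FPKM in P1 replicates 1 to 4 and 238, 158, 323 and 221 FPKM in the P7 hearts. Its stages overlapped and its log2 fold change was 0.07 (95% interval -0.49 to 0.63). *Pdhb* was close to it in every heart. The ratio *Pdhb*/*Pdha1* on the log2 scale was 0.16 ± 0.09 at P1 and 0.15 ± 0.13 at P7 (SD, n = 4), with a difference of -0.01 (two-sided exact permutation test, p = 0.971). *Dlat* averaged 89.1 ± 19.7 and 111 ± 35.0 FPKM, and *Pdhx* 27.8 ± 5.10 and 27.2 ± 8.57 FPKM, at P1 and P7 respectively.

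*Dld* encodes dihydrolipoamide dehydrogenase, the E3 that pyruvate, oxoglutarate and branched-chain keto acid dehydrogenase share. It had 159, 170, 145 and 192 FPKM in the P1 hearts and 119, 88.8, 168 and 135 FPKM in the P7 hearts. P7 replicate 3 lay inside the P1 range and the other 3 P7 hearts below it. *Dld* had the lowest log2 fold change of the 33 genes, -0.41 (95% interval -0.89 to 0.07, limma adjusted p = 0.342). After median-ratio scaling this became -0.65 (adjusted p = 0.0323), which passes the rule for lower, as did 620 of 17951 annotated loci. After GC correction the log2 fold change of *Dld* was -0.13 (adjusted p = 0.741).

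The first steps of the cycle had P7 means above P1 for most enzymes, with overlapping hearts throughout. *Cs*, citrate synthase, joins acetyl-CoA and oxaloacetate and averaged 176 ± 44.8 FPKM at P1 and 242 ± 75.9 FPKM at P7 (log2 fold change 0.44, 95% interval -0.12 to 1.00). *Aco1*, the cytosolic aconitase that also binds iron-responsive elements, stayed between 11.1 and 17.7 FPKM in all hearts. The largest log2 fold change among the 12 enzymes counted under the cycle was that of *Ogdh*, the E1 of oxoglutarate dehydrogenase. It had 86.7, 74.7, 72.9 and 96.6 FPKM at P1 and 120, 87.7, 179 and 130 FPKM at P7. Only P7 replicate 2 fell within the P1 range. The ratio of means was 1.56 and the log2 fold change 0.60 (95% interval 0.10 to 1.10), but the limma adjusted p was 0.185. *Dlst*, the E2 of the same complex, averaged 115 ± 46.4 FPKM at P1 and 131 ± 48.7 FPKM at P7 (log2 fold change 0.20). The log2 ratio *Dlst*/*Ogdh* was 0.40 ± 0.37 at P1 and 0.00 ± 0.15 at P7 (exact permutation p = 0.0857, overlapping hearts).

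Within the NAD-dependent isocitrate dehydrogenase, the subunits differed in course. *Idh3a* encodes the catalytic chain, and *Idh3b* and *Idh3g* encode its partner chains. *Idh3a* averaged 131 ± 23.1 FPKM at P1 and 109 ± 36.1 FPKM at P7, while *Idh3b* averaged 161 ± 36.3 and 195 ± 50.9 FPKM and *Idh3g* 133 ± 43.7 and 168 ± 31.3 FPKM. None of the 3 was called. The log2 ratio *Idh3b*/*Idh3a* was 0.46, 0.24, 0.12 and 0.31 in the P1 hearts and 1.02, 0.96, 0.77 and 0.68 in the P7 hearts. All P7 hearts were above all P1 hearts, and the difference was 0.58 (exact permutation p = 0.0286, adjusted p = 0.0444 over 14 ratios). *Idh3g*/*Idh3a* rose by 0.68 (exact permutation p = 0.0286, adjusted p = 0.0444), from -0.02 ± 0.24 to 0.66 ± 0.25. After GC correction its difference was 0.49 with overlapping hearts (exact permutation p = 0.0571). That of *Idh3b*/*Idh3a* was then 0.56 without overlap (exact permutation p = 0.0286). An exact test of 4 against 4 hearts cannot go below p = 0.0286, so ratios at that value cannot be ranked by p.

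Succinyl-CoA ligase is built from a common alpha chain (*Suclg1*) and a beta chain that sets its nucleotide, *Sucla2* for ATP and *Suclg2* for GTP. The ATP form led in every heart, with *Sucla2* at 153 ± 37.8 and 140 ± 32.6 FPKM and *Suclg2* at 35.9 ± 12.0 and 40.8 ± 9.96 FPKM. The log2 ratio *Sucla2*/*Suclg2* was 1.99, 2.25, 2.25 and 1.97 at P1 and 1.94, 1.54, 1.68 and 1.95 at P7. The stages were apart by a narrow margin, and *Sucla2* stood at 4.32 times *Suclg2* at P1 and 3.42 times at P7 (geometric means, exact permutation p = 0.0286, adjusted p = 0.0444). After GC correction the difference of the log2 ratio was -0.29, with overlapping hearts (exact permutation p = 0.0571). *Suclg1* averaged 150 ± 29.6 FPKM at P1 and 161 ± 42.1 FPKM at P7, and none of these genes was called. *Fh1*, fumarate hydratase, lay between 118 and 129 FPKM in all P1 hearts and spread from 93.1 to 176 FPKM at P7.

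Mitochondrial and cytosolic forms of the same enzyme shifted against each other in malate dehydrogenase and aspartate transaminase, the enzymes of the malate-aspartate shuttle. *Mdh2*, the matrix form, had 146, 149, 115 and 186 FPKM at P1 and 204, 152, 290 and 209 FPKM at P7 (log2 fold change 0.50, limma adjusted p = 0.282). *Mdh1*, the cytosolic form, had 360, 347, 319 and 456 FPKM at P1 and 304, 223, 426 and 308 FPKM at P7 (log2 fold change -0.26, adjusted p = 0.528). Neither passed alone. Their ratio had the smallest P7 spread of the 14 ratios examined, with log2 *Mdh2*/*Mdh1* at -1.30, -1.22, -1.47 and -1.29 in the P1 hearts and at -0.58, -0.55, -0.55 and -0.56 in the P7 hearts. *Mdh2* was thus 0.400 times *Mdh1* at P1 and 0.677 times at P7 (difference 0.76, exact permutation p = 0.0286, adjusted p = 0.0444). *Got2* and *Got1* are the mitochondrial and cytosolic aspartate transaminases. Their log2 ratio rose from -0.91 ± 0.17 to -0.36 ± 0.08 (difference 0.54, exact permutation p = 0.0286, adjusted p = 0.0444), again with no overlap between hearts. The level of *Got2*, and with it this ratio, is uncertain because fragments may have been divided with a pseudogene locus described below.

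For the NADP-dependent isocitrate dehydrogenases, the stages overlapped. *Idh2* had 293, 256, 188 and 492 FPKM at P1 and 449, 374, 598 and 414 FPKM at P7, the highest P1 heart being above 3 of the P7 hearts. Its log2 fold change was 0.64 (95% interval 0.02 to 1.26, limma adjusted p = 0.253). *Idh1*, the cytosolic form, averaged 30.9 ± 4.70 and 31.1 ± 6.86 FPKM. The log2 ratio *Idh2*/*Idh1* was 3.23 ± 0.38 at P1 and 3.88 ± 0.21 at P7 (exact permutation p = 0.0571), and after GC correction the difference was -0.02.

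**Figure D3:**
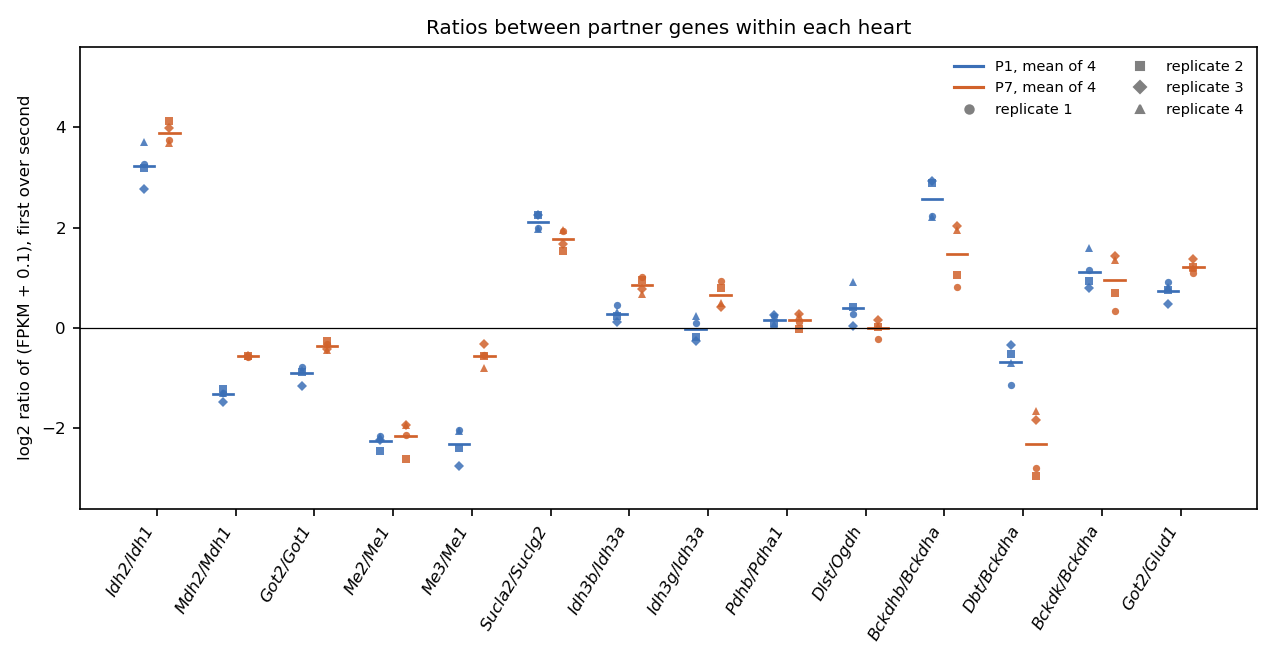
Log2 ratio of (FPKM + 0.1) of the first over the second gene of 14 pairs in each heart, P1 in blue and P7 in orange, with the replicate number as symbol and the mean of 4 hearts as a line. The stages are apart in 9 pairs, 6 with higher and 3 with lower ratios at P7, and *Mdh2*/*Mdh1* has the narrowest P7 group.

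The ratios cancel the overall level of a heart, because both genes come from the same library. Of 14 ratios, 9 passed (adjusted p under 0.05), 6 of them higher and 3 lower at P7. The share among other gene pairs was not determined. For single annotated loci, which keep the overall level of a heart, 17.3% had every P7 heart above and 2.69% every P7 heart below the P1 hearts. These shares are therefore not a background for the ratios. The 9 are not independent, because *Bckdha*, *Idh3a* and *Got2* each occur in more than 1 of them. The ratios do not cancel effects of base composition. After correction of each heart's trend on transcript GC content, 12 of the 14 differences kept their sign and *Mdh2*/*Mdh1* (0.49), *Got2*/*Got1* (0.38), *Me3*/*Me1* (1.68) and *Idh3b*/*Idh3a* (0.56) still had no overlap between the stages. With only these 4 at the smallest possible p, 0 of 14 passed the adjustment (adjusted p = 0.1 for each of the 4).

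Malic enzymes turn malate into pyruvate and reduce NADP or NAD. *Me3*, a mitochondrial NADP-dependent form (chr7:89632097-89854461, GRCm38), showed the largest change of the 33 genes. It had 6.26, 4.99, 3.18 and 7.15 FPKM in the P1 hearts and 18.3, 15.3, 21.7 and 15.4 FPKM in the P7 hearts. The lowest P7 heart was above 2 times the highest P1 heart. The ratio of means was 3.28 and the log2 fold change 1.58 ± 0.23 (SE, n = 4 per stage, limma adjusted p = 0.00694). The other malic enzymes did not pass. *Me1*, the cytosolic form, averaged 26.1 ± 3.21 and 25.8 ± 2.30 FPKM, with the narrowest interval of the 33 genes (-0.39 to 0.37), and *Me2*, the mitochondrial NAD-dependent form, averaged 5.42 ± 0.92 and 5.89 ± 1.64 FPKM. *Me3* therefore stood at 0.202 times *Me1* at P1 and at 0.682 times at P7 (difference of the log2 ratio 1.75, exact permutation p = 0.0286, adjusted p = 0.0444), while *Me2*/*Me1* differed by 0.09 (p = 0.543).

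*Pck2* (chr14:55540266-55552001) makes phosphoenolpyruvate from oxaloacetate inside mitochondria. It had 2.28, 1.71, 1.27 and 2.96 FPKM at P1 and 5.54, 3.52, 5.41 and 3.81 FPKM at P7, with every P7 heart above every P1 heart. The ratio of means was 2.23 and the log2 fold change 0.88 ± 0.22 (limma adjusted p = 0.0477), just inside the threshold. The call was lost with a pseudocount of 0.1 (adjusted p = 0.0548), after GC correction (0.0815), with equal annotated totals (0.0933) and with 7 of the 8 hearts left out singly. *Pcx*, which makes oxaloacetate from pyruvate, was at or near the limit for testing, between 0.38 and 1.00 FPKM, with a log2 fold change of 0.07 (95% interval -0.38 to 0.51).

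*Glud1*, glutamate dehydrogenase, releases ammonia from glutamate to form oxoglutarate. It averaged 33.9 ± 10.6 FPKM at P1 and 34.2 ± 7.24 FPKM at P7 (log2 fold change 0.03, 95% interval -0.49 to 0.55). *Got2* had 61.4, 48.0, 35.0 and 87.3 FPKM at P1 and 75.6, 56.2, 108 and 82.5 FPKM at P7 (log2 fold change 0.51, limma adjusted p = 0.350), and *Got1* averaged 106 ± 34.4 and 105 ± 32.4 FPKM. The log2 ratio *Got2*/*Glud1* was 0.74 ± 0.19 at P1 and 1.22 ± 0.11 at P7 (exact permutation p = 0.0286, adjusted p = 0.0444), and 0.05 remained of this difference after GC correction. *Got2-ps1*, a pseudogene of *Got2*, was listed at a locus on chromosome 5 from 138363556 to 138388287. That locus had 0.0489 to 0.62 FPKM in the P1 hearts and 10.1 to 37.7 FPKM in the P7 hearts. Whether it covers more than the pseudogene was not examined. The pseudogene was looked up after the values of *Got2* had been seen. Fragments of near-identical copies may have been divided between such loci, so the level of *Got2* is uncertain to that extent.

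Branched-chain amino acid enzymes held the second largest change. *Bcat2*, the mitochondrial transaminase that starts the pathway, had 4.77, 4.92, 2.93 and 6.55 FPKM at P1 and 5.30, 5.62, 11.5 and 7.46 FPKM at P7, with overlap and a log2 fold change of 0.53 (limma adjusted p = 0.297). *Bckdha* (chr7:25627624-25658944) encodes the E1 alpha chain of the branched-chain keto acid dehydrogenase, which carries the regulatory phosphorylation. It had 13.5, 9.32, 7.41 and 13.5 FPKM at P1 and 33.02, 26.2, 23.1 and 19.3 FPKM at P7. All P7 hearts were above all P1 hearts. The ratio of means was 2.33 and the log2 fold change 1.16 ± 0.23 (limma adjusted p = 0.0220). After GC correction this was 0.76 (adjusted p = 0.118), and with equal annotated totals 0.99 (adjusted p = 0.0566). Its call was also lost when P1 replicate 2 or 3 or P7 replicate 1 or 3 was left out (adjusted p of 0.0826, 0.0579, 0.0710 and 0.0561).

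The partner subunits of *Bckdha* did not pass. *Bckdhb*, the E1 beta chain, had 63.4, 69.4, 56.7 and 63.3 FPKM at P1 and 57.9, 54.4, 95.1 and 75.6 FPKM at P7 (log2 fold change 0.13, 95% interval -0.33 to 0.58). *Dbt*, the E2 chain, had 6.04, 6.45, 5.80 and 8.27 FPKM at P1 and 4.66, 3.30, 6.404 and 6.03 FPKM at P7 (log2 fold change -0.35, 95% interval -0.81 to 0.12). The proportions among the 3 chains therefore changed. *Bckdhb* was 5.91 times *Bckdha* at P1 and 2.76 times at P7, and *Dbt* was 0.625 times *Bckdha* at P1 and 0.201 times at P7 (geometric means, exact permutation p = 0.0286 and adjusted p = 0.0444 for both). After GC correction the differences of these log2 ratios were -0.60 (exact permutation p = 0.171) and -0.79 (p = 0.0857) in place of -1.10 and -1.63, with overlap. The transcript GC content is 57.9% for *Bckdha*, 50.3% for *Bckdhb* and 42.1% for *Dbt*, and annotated loci called higher at P7 had a median of 56.2% against 48.6% in the other tested loci.

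*Bckdk* encodes the kinase that phosphorylates and inactivates the complex. It had 30.1, 18.0, 12.9 and 41.1 FPKM in the P1 hearts and 41.8, 42.3, 62.7 and 49.7 FPKM in the P7 hearts. The lowest P7 heart lay just above the highest P1 heart. The ratio of means was 1.92 and the log2 fold change 1.03 ± 0.31, yet the limma adjusted p was 0.0900. The gene passed when only loci at 1 FPKM or more in every heart were tested (adjusted p = 0.0193) and when P1 replicate 4 was left out (adjusted p = 0.0164). The log2 ratio *Bckdk*/*Bckdha* was 1.12 ± 0.35 at P1 and 0.96 ± 0.53 at P7 (difference -0.17, exact permutation p = 0.629).

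The promoters of the 3 genes called higher at P7 are shown. They are RefSeq reference sequence on GRCm38.p6, 250 bases before to 50 bases after the start of the gene, given 5′ to 3′ on the strand of the gene. Capitals mark matches to TGATGNAA on either strand, the letters of the composite element bound by C/EBP and ATF factors.
Me3 (chr7:89632568-89632867, + strand): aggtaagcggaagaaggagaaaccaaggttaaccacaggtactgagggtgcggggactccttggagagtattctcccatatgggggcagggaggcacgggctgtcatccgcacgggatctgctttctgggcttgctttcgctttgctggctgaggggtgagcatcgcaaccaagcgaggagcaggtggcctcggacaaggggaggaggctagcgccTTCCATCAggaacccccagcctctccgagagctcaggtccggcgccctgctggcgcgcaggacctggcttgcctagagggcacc
Pck2 (chr14:55540016-55540315, + strand): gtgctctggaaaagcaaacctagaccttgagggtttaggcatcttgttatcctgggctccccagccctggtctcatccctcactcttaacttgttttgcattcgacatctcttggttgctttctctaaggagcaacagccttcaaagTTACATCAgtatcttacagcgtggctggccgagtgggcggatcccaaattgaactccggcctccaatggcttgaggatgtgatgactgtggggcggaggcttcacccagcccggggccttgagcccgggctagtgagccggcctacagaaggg
Bckdha (chr7:25658712-25659011, - strand): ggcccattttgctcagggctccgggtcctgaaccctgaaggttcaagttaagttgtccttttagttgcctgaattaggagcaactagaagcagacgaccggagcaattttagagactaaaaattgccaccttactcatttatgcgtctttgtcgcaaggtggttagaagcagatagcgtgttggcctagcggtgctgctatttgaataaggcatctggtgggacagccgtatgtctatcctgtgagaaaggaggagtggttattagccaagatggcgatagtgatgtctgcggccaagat

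These letters occur in 3.97% of the 32851 RefSeq promoters of the same length and in 3 of the 40 promoters that RefSeq lists for the 30 genes matched here, 1 each of *Me3*, *Pck2* and *Got1*. The match lies on the reverse strand in both promoters printed with capitals and begins 34 bases before the RefSeq start of *Me3* and 103 bases before that of *Pck2*. For *Me3* both the locus in the files (from position 89632097) and the GENCODE gene (from 89632392) start before the printed stretch, so that by those coordinates the match lies inside the gene. *Got1* was not called (log2 fold change -0.02). Of the other motifs searched on both strands, AAGGTCA, the half-site of nuclear receptors, matched 2 of the 40, of *Got1* and *Ogdh* (4.72% of all promoters), and its extended form TNAAGGTCA, bound by estrogen-related receptors, matched 0 of the 40 (1.28%). CGCATGCG, the core of the NRF1 site, matched 2, both of *Ogdh* (1.87%). CACGTG, the E-box, matched 4, of *Ogdh* and *Pcx* (7.15%), TGACGTCA, the cAMP response element, matched 4, of *Mdh2* and *Ogdh* (1.79%), and CCGGAAG, the ETS core, matched 4, of *Dlst*, *Glud1*, *Idh3b* and *Idh3g* (8.86%). No motif of the 7 matched *Bckdha*. On its minus strand, the GENCODE gene starts at 25658981 and the locus in the files at 25658944, both within the printed stretch. By those coordinates, most of the *Bckdha* stretch lies inside the gene. The promoters of *Me2*, *Dbt* and *Idh3a* were not analysed here. A match is a description of letters and was not tested for binding.

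Around these enzymes, 72 further genes in 6 lists described control and supply, of which 65 could be tested. Of these, 6 rose and 0 fell (9.23% higher, against the background of 7.74%), and 59 did not pass. The kinases that switch off pyruvate dehydrogenase held 2 of them. *Pdk2* had 18.6, 16.7, 10.04 and 15.2 FPKM at P1 and 42.1, 51.1, 42.9 and 33.2 FPKM at P7, a ratio of means of 2.80 (log2 fold change 1.44 ± 0.22, limma adjusted p = 0.00790). *Pdk4* had 40.9, 34.3, 27.5 and 55.8 FPKM at P1 and 124, 111, 58.8 and 94.2 FPKM at P7, a ratio of 2.45 (log2 fold change 1.26 ± 0.27, adjusted p = 0.0271). Both had all P7 hearts above all P1 hearts, *Pdk4* by a small margin in P7 replicate 3. The call of *Pdk2* was kept in all 8 fits that left out a single heart, while that of *Pdk4* was lost in 6 of the 8 fits that left out a single heart, with equal annotated totals (adjusted p = 0.0831) and with no filter on low values (adjusted p = 0.0624). The other 7 genes of pyruvate entry, the carriers *Mpc1* and *Mpc2* and the phosphatases included, did not pass.

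**Figure D4:**
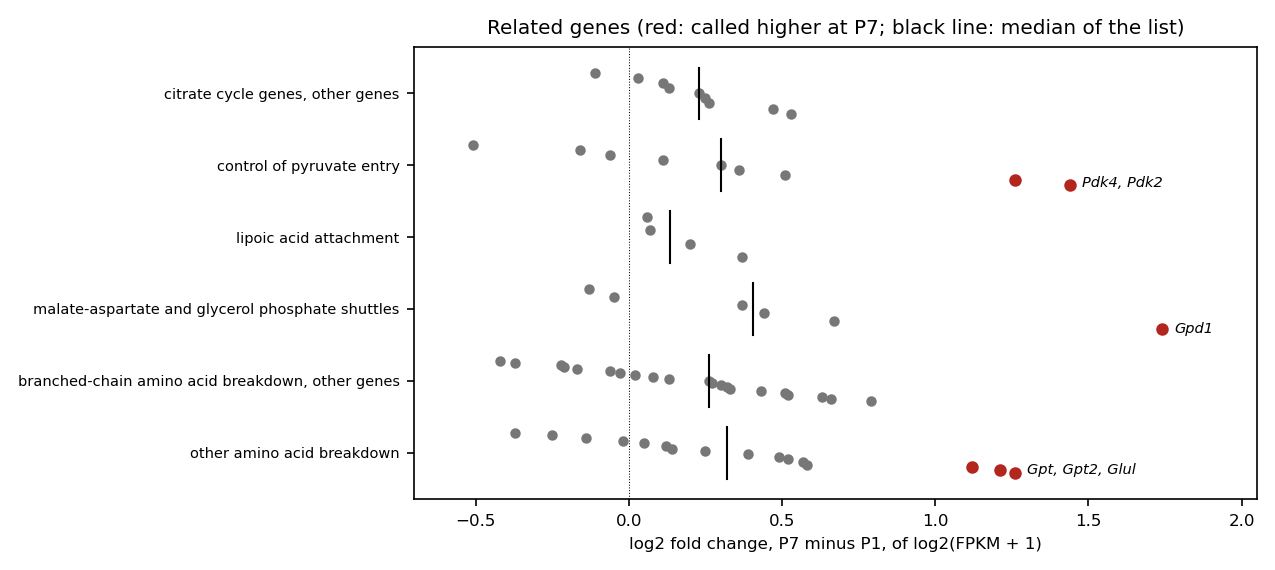
Log2 fold change (P7 minus P1, log2(FPKM + 1) scale) of the 65 tested genes of 6 related lists, 1 point per gene, with called genes in red and named and the median of each list as a black line. The called genes lie between 1.12 (*Gpt*) and 1.74 (*Gpd1*), and all other points lie under 0.8.

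In the list of the mitochondrial shuttles, *Gpd1*, the cytosolic glycerol-3-phosphate dehydrogenase, was the 1 called gene of 6. It had 4.36, 2.42, 2.16 and 4.94 FPKM at P1 and 9.31, 14.3, 15.6 and 15.2 FPKM at P7, a ratio of 3.92 (log2 fold change 1.74 ± 0.25, limma adjusted p = 0.00667). The list of other amino acid breakdown also holds *Glul*, an enzyme of synthesis, and 3 of its 16 tested genes rose. *Gpt2* and *Gpt*, the mitochondrial and cytosolic alanine transaminases, went from 1.22 ± 0.33 to 4.18 ± 1.17 FPKM (log2 fold change 1.21, adjusted p = 0.0141) and from 1.17 ± 0.49 to 3.81 ± 1.63 FPKM (1.12, adjusted p = 0.0323). The call of *Gpt* was lost with GC correction (log2 fold change 0.70, adjusted p = 0.182), with equal annotated totals (adjusted p = 0.0621), with no filter on low values (adjusted p = 0.0704) and in 6 of the 8 fits that left out a single heart. *Glul*, glutamine synthetase, which makes glutamine from glutamate, had 27.6, 25.0, 19.1 and 33.8 FPKM at P1 and 89.8, 49.6, 72.7 and 49.6 FPKM at P7 (ratio 2.48, adjusted p = 0.0197). Leaving out single hearts ended the call of *Glul* for 4 of the 8, that of *Gpt2* for 1 and that of *Gpd1* for 0. The stages were apart in all 4 genes.

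The other 3 lists held no called gene. Of the 9 tested citrate cycle genes outside the 33, which include the 4 subunits of succinate dehydrogenase and mitochondrial aconitase, 0 passed in either direction by limma and 0 had an unadjusted p under 0.05. *Nnt*, which couples the proton gradient to NADPH, and *Sdhc* had the largest log2 fold changes, 0.53 (adjusted p = 0.271) and 0.47 (adjusted p = 0.285). All 4 genes of the list of lipoic acid attachment were within 0.06 to 0.37, with *Lipt2* at 0.37 and *Lias* at 0.20. Of 21 further genes of branched-chain amino acid breakdown, 0 passed and 4 had an unadjusted p under 0.05. Among them was *Auh*, an enzyme of leucine breakdown (log2 fold change 0.66, adjusted p = 0.147). Of all 17960 annotated loci tested, 5328 had an unadjusted limma p under 0.05. *Csl*, *Pdha2*, *Mdh1b*, *Gls2*, *Aass*, *Tat* and *Hal* were under 1 FPKM in every heart and were not tested.

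The tissue markers were those of heart muscle in all 8 libraries. The 8 cardiomyocyte markers, among them *Myh6* and *Tnnt2*, made up 2.63% to 5.02% of the annotated FPKM total at P1 and 3.56% to 4.27% at P7. Of these, 0 of 8 was called, while 7 had a log2 fold change above 0 and 1 below. *Tnni3* had every P7 heart above every P1 heart (ratio of means 1.73, limma adjusted p = 0.147). Markers of other cells moved with the stage, as 3 of 6 fibroblast markers (0.118% to 0.226% of the total at P1, 0.192% to 0.224% at P7), 2 of 5 endothelial markers (0.0136% to 0.0236%, then 0.0192% to 0.0240%) and 1 of 4 smooth muscle and pericyte markers (0.0462% to 0.0979%, then 0.0368% to 0.0472%) were called higher, against 7.74% of all tested loci. In the other direction, *Acta2* of smooth muscle (ratio of means 0.527) and *Emcn* of the endothelium (0.743) had every P7 heart below every P1 heart and were not called. Of the tested macrophage (3), red cell (4), liver (3) and skeletal muscle (1) markers, 0 was called, and *Myod1* and *Myh4*, which define skeletal muscle, stayed at or under 0.0779 FPKM. The part of these cells in the values of *Me3*, *Bckdha* and *Pck2* was not tested. Brown fat transcripts appeared in P7 replicates 2 and 4, with *Ucp1* at 3.09 and 10.3 FPKM, and the 3 brown fat markers summed to 8.30 to 16.2 FPKM at P1 and 20.6 to 37.9 FPKM at P7. Of the 3, *Cidea* was called higher, from 8.22 to 15.5 FPKM at P1 to 20.6 to 24.8 FPKM at P7 (log2 fold change 0.88, adjusted p = 0.0349). In P7 replicate 1, *Ucp1* and *Adipoq* were listed at 0 and *Cidea* was at 20.6 FPKM, with *Me3* at 18.3 and *Bckdha* at 33.02 FPKM. With P7 replicates 2 and 4 left out, 2 P7 hearts remained, and the log2 fold changes were 1.76 for *Me3*, 1.3 for *Bckdha* and 1.12 for *Pck2*. *Me3* was then called and the other 2 were not (adjusted p = 0.0226, 0.0565 and 0.0683). Liver transcripts appeared in P1 replicates 1 and 3, with *Alb* at 40.3 and 23.7 FPKM against 0.289 to 5.63 FPKM elsewhere. Without these hearts 0 of the 33 genes was called by limma, 34 annotated loci were called higher, and the log2 fold change of *Me3* was 1.40 (adjusted p = 0.0680).

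The positions in the files are those of clusters of overlapping genes. For 7 of the 33 genes (*Idh3b*, *Sucla2*, *Fh1*, *Mdh1*, *Pdha1*, *Pcx* and *Bckdha*) the cluster also covers another protein-coding gene, which has a row of its own. Whether strand was used in counting is not given in the sources used here, so fragments of such neighbours may not have been told apart. The neighbour of *Bckdha*, *B3gnt8*, was listed at 0.414 to 0.936 FPKM, that of *Mdh1*, *Wdpcp*, at 3.88 to 7.63 FPKM, and that of *Idh3b*, *Nop56*, at 10.01 to 31.5 FPKM. That of *Pcx*, *Lrfn4*, was at 2.77 to 4.10 FPKM at P1 and 5.08 to 7.69 FPKM at P7, above *Pcx* in every heart.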

How the data were processed

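The authors' provider aligned paired reads to GRCm38 with Ensembl annotation and deposited 1 table of FPKM per heart; the aligner is not given in the sources used here. FPKM were taken as deposited. The 43172 loci that reached 1 FPKM in any heart were tested with limma 3.58.1 (R 4.3.3) on log2(FPKM + 1), lmFit and eBayes with a trend, all 8 hearts, no covariates, Benjamini-Hochberg adjustment over all tested loci. Ratios of 14 gene pairs, log2 of (FPKM + 0.1), were compared with two-sided exact permutation tests, adjusted over the 14. GC correction subtracted each heart's lowess trend (span 0.3) on the GC content of GENCODE M21 transcripts, known for 93.4% of the annotated loci called higher and 85.3% of the others. The limma script was tested on simulated data. Alternatives were a pseudocount of 0.1, other filters and scalings, the replicate number as a block and GC correction. Further ones were the adjusted p without the 1.5-fold rule and each heart left out. Leaving out 2 hearts with traces of another tissue was chosen after seeing the data. All 33 genes are named, and from each related list the called genes, at most 3 in each direction, or the 2 with the largest absolute fold change. Of these, 1 gene is not reported here. The genes, lists, pairs and tests were chosen with earlier results of these data known. Permutation tests used scipy 1.17.1 under Python 3.11.15, and numpy was 2.4.6.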

Additional observations from a re-analysis of the deposited data

Results flagged for a closer look

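Of 118 groups of 4 hearts examined (the 33 genes, the named related genes and the 14 ratios at each stage), 1 had a heart far from the rest by Dixon's test, and chance alone flags about 1 group in 20. *Me1*, the cytosolic malic enzyme, was at 22.4 FPKM in P7 replicate 2 and at 26.5 to 27.3 FPKM in the other P7 hearts, a gap of 0.85 of the range of that stage. P7 replicate 2 was also the lowest P7 heart for 28 of the 33 genes.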

How the results depend on the processing

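*Me3* remained called under all 9 alternatives to the main fit and with each of the 8 hearts left out. Among the 9, the adjusted p without the 1.5-fold rule only loosens the rule and could not end a call. The count of called genes among the 33 fell from 3 to 1 (*Me3* alone) with equal annotated totals and with GC correction, with or without the replicate block. It was 1 to 5 as single hearts were left out. Annotated loci called higher fell as well, from 1390 of 17960 to 477 of 17957 with equal annotated totals. With GC correction they were 381 of 17960, and 347 with the block as well. As single hearts were left out, they were 156 to 2720. The count among the 33 was 1 without both P7 hearts with brown fat transcripts (316 annotated loci called higher). It was 0 without both P1 hearts with liver transcripts (34 annotated loci), a fit with 2 hearts of that stage. Genes called lower went from 0 to 1 (*Dld*) with median-ratio scaling, while annotated loci called lower went from 72 of 17960 to 620 of 17951. For the related genes, 6 called higher became 0 without the 2 P1 hearts with liver transcripts. With single hearts left out they became 2 to 9 (2 without P1 replicate 2, 3 without P1 replicate 3 and 3 without P7 replicate 1). With median-ratio scaling, 0 called lower became 2 (*Mut* and *Pdk3*), in the same fit that called 620 annotated loci lower. Partner ratios past the threshold went from 9 to 0 with GC correction, because the 4 still at the smallest p are then too few for the adjustment.

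The replicate number as a block gave 2 called genes of the 33, as *Pck2* was lost (limma adjusted p = 0.0648). In that fit 970 annotated loci were called higher, against 1390 in the main fit. Same-numbered differences of 4 hearts cannot reach a p below 0.125 for the ratios, so that none could pass. Deviations of same-numbered hearts correlated at -0.0188, 0.122, -0.102 and -0.027, and the numbers were therefore not taken as pairs.

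None of the log2 fold changes or differences of log2 ratios that turned sign had passed a test. With median-ratio scaling these were *Aco1* -0.192, *Dlst* -0.043, *Suclg1* -0.159, *Suclg2* -0.034, *Fh1* -0.173, *Pdha1* -0.173, *Pdhb* -0.184, *Me2* -0.134, *Bckdhb* -0.113, *Glud1* -0.204 and *Lias* -0.035. With equal annotated totals they were *Aco1* -0.133, *Suclg1* -0.098, *Fh1* -0.111, *Pdha1* -0.111, *Pdhb* -0.122, *Pcx* -0.015, *Me2* -0.082, *Bckdhb* -0.051 and *Glud1* -0.144. With GC correction, with or without the block, they were *Aco1* -0.06, *Idh1* 0.22, *Sucla2* 0.116, *Pdhx* 0.109, *Pcx* -0.324 and *Me1* 0.179, and without the block also *Idh2*/*Idh1* -0.018 and *Bckdk*/*Bckdha* 0.162. Leaving out single hearts gave ranges across 0 for *Aco1* (-0.077 to 0.133), *Idh1* (-0.102 to 0.158), *Dlst* (-0.023 to 0.444), *Suclg1* (-0.068 to 0.226), *Sucla2* (-0.25 to 0.032), *Fh1* (-0.079 to 0.226), *Pdha1* (-0.097 to 0.245), *Pdhb* (-0.146 to 0.291), *Pdhx* (-0.235 to 0.06), *Pcx* (-0.023 to 0.158), *Me1* (-0.087 to 0.053), *Me2* (-0.014 to 0.262), *Got1* (-0.196 to 0.173), *Bckdhb* (-0.024 to 0.241), *Glud1* (-0.089 to 0.223), *Pdhb*/*Pdha1* (-0.049 to 0.046) and *Bckdk*/*Bckdha* (-0.327 to 0.039).

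The cause of these changes was not tested. Without counts, the error of low values such as those of *Pcx* and *Pck2* cannot be separated into counting error and differences between hearts, and a gene that was not called is not shown to be unchanged.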
